A study of Mus musculus with 2 samples.

Results

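The nuclear-encoded genes of the mitochondrial respiratory chain were followed in nuclear RNA of mouse macrophages. Members were the genes whose symbol starts with Nduf, Sdh, Uqcr, Cox4, Cox5, Cox6, Cox7, Cox8 or Atp5 and which have at least 1 transcript typed as protein-coding. The rule found 98 gene identifiers with 97 symbols among 55536 genes, and it used no measured value. By complex they were 44 genes of complex I, 8 of complex II, 8 of complex III, 20 of complex IV and 18 of complex V. By role, 75 were identifiers of structural subunits with their own level, 14 were assembly or associated factors and 8 were tissue isoforms or paralogues. The remaining identifier is a second entry for Atp5o.

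The RNA came from bone-marrow-derived macrophages, primary cells of C57BL/6J mice, and was depleted of ribosomal RNA before sequencing of the nuclear fraction. All cells had received Lipid A, the part of bacterial lipopolysaccharide that TLR4 senses, at 100 ng/ml for 12 h, then 12 h without it, and then 100 ng/ml again for 120 min. This was the only group, with 2 biological replicates made from 1 µg (replicate 1) and 500 ng (replicate 2) of RNA, so input and replicate cannot be told apart. Both replicates carry one and the same donor label and separate animals are not stated, the mice's age and sex were not collected, and untreated cells were not analysed here, so no effect of Lipid A can be read from these values.

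The respiratory chain passes electrons from NADH (complex I) and succinate (complex II) through ubiquinone, complex III and cytochrome c to oxygen at complex IV, and complex V uses the resulting proton gradient to make ATP. Its subunits come from 2 genomes. The mitochondrial DNA encodes 13 of them, at the centre of complexes I, III, IV and V, and the nuclear genome encodes all others, including the whole of complex II. In macrophages, activation through TLR4 is known to shift metabolism away from oxidative phosphorylation towards glycolysis, with complex I and succinate dehydrogenase as sources of signalling molecules.

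Gene counts summed to 28450309 in replicate 1 and 16940220 in replicate 2. The members held 34487 of these counts in replicate 1, a share of 0.121% (95% Wilson interval 0.120 to 0.123), and 18751 in replicate 2, a share of 0.111% (0.109 to 0.112). The 13 mitochondrial mRNAs held 4.09% and 10.2% of the counts. Levels are given as TPM, which corrects for transcript length. Short RNAs took 75.9% of the TPM in replicate 1 and 55.6% in replicate 2, which presses down the TPM of every other gene by a different amount in each library. All 9 macrophage markers, among them Lyz2 and Csf1r, were at TPM 1 or more in both libraries, and markers of T cells, B cells, neutrophils and fibroblasts were below 1 in both. Of the erythroid markers Alas2 reached TPM 1 in replicate 2 only (0.84 and 1.77 TPM). In the second transcript table Cd3d, a T cell marker, had 1.00 and 5.57 TPM and Alas2 1.45 and 3.41 TPM.

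Structural subunits of all 5 complexes were present in nuclear RNA, at low to moderate levels. Of the 98 identifiers, 82 reached TPM 1 in both libraries, against 39.6% of the 22015 protein-coding genes of the nuclear genome. All 75 structural genes with their own level passed, as did 7 of 14 assembly or associated factors and 0 of 8 tissue isoforms. Only 33 members reached TPM 10 in both libraries. The median over the structural genes was 9.48 TPM in replicate 1 and 10.9 TPM in replicate 2, at percentiles 84.8 and 81.8 among protein-coding genes. The 76 cytoplasmic ribosomal protein genes, another large set of short housekeeping genes, had median TPM values of 27.6 and 29.2.

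**Figure D1:**
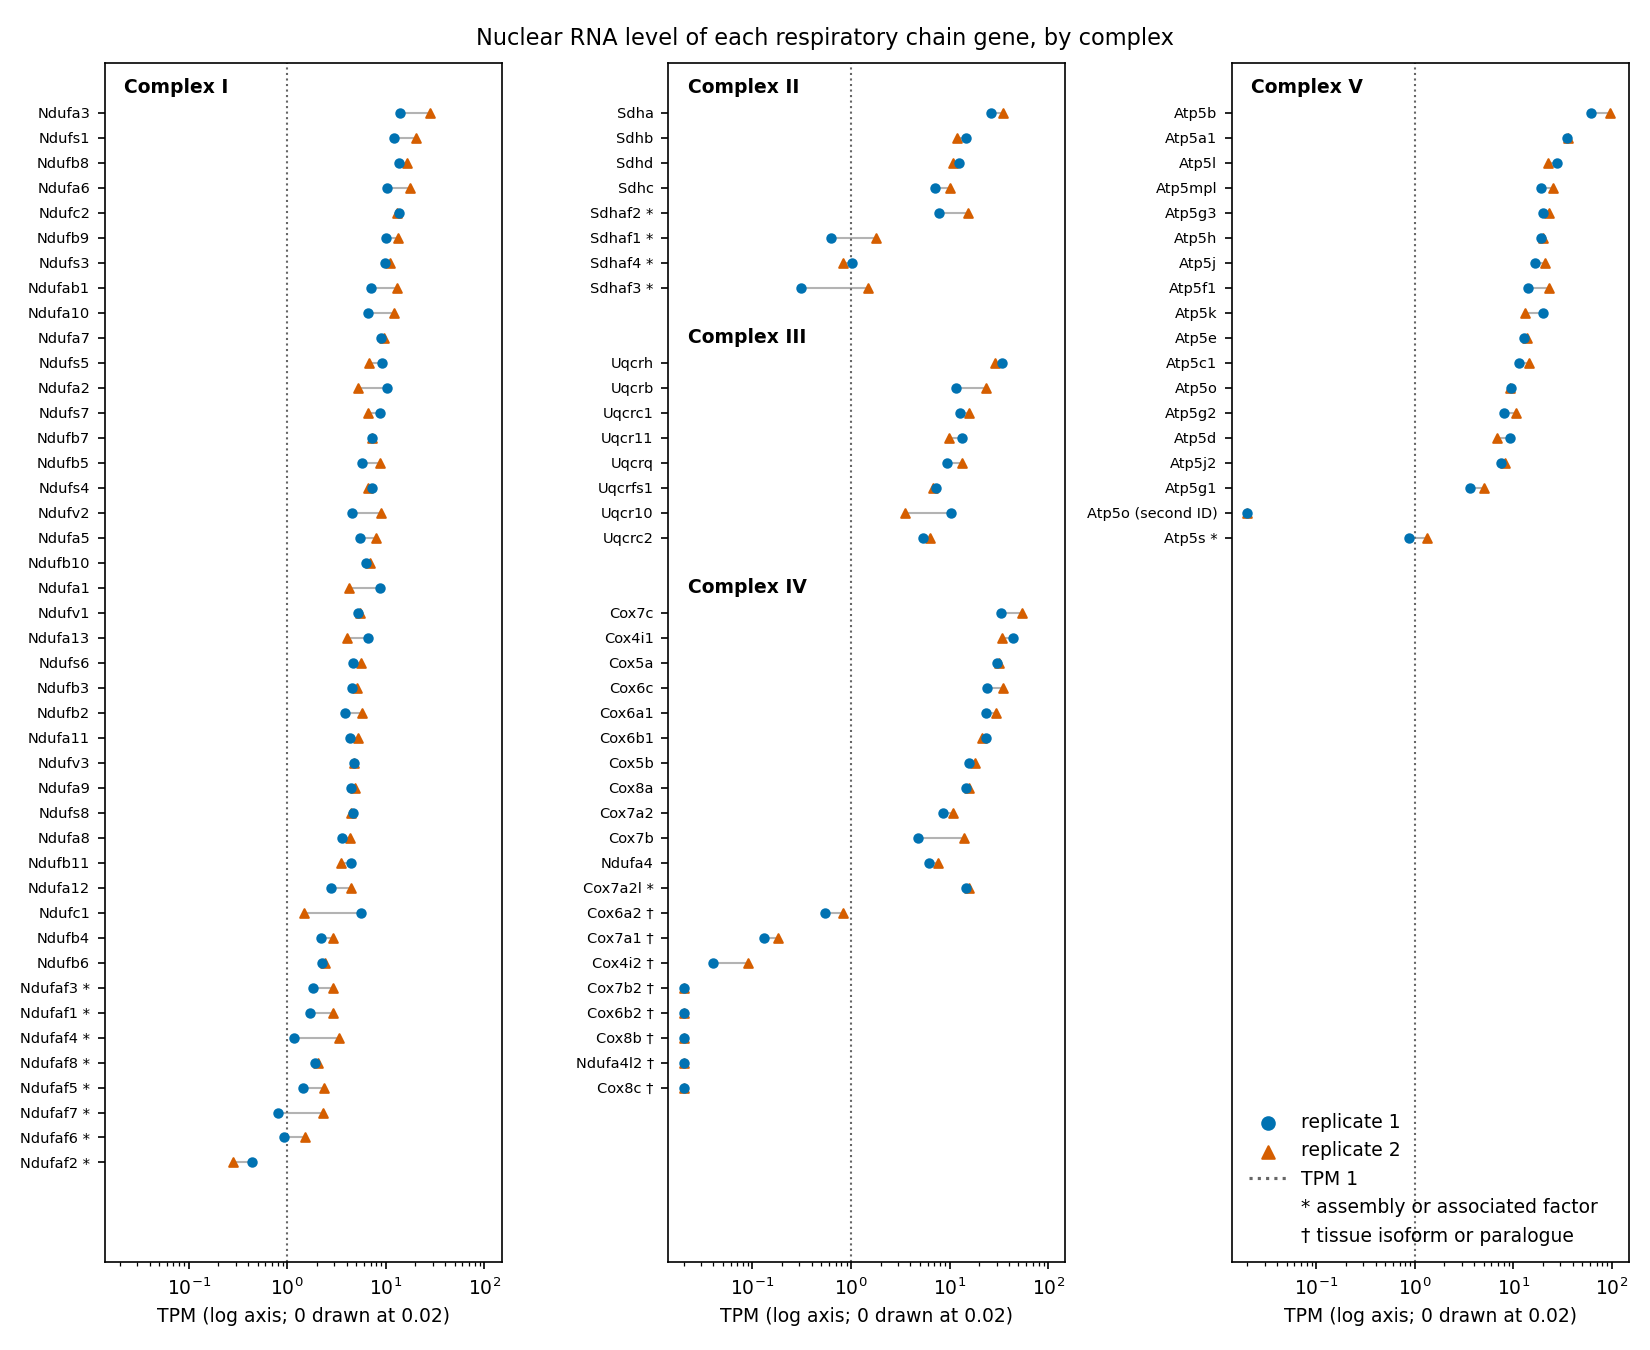
TPM of 97 of the 98 identifiers (log axis, values of 0 drawn at 0.02) in replicate 1 (circles) and replicate 2 (triangles), grouped by complex and sorted within role by mean level. The structural genes lie to the right of TPM 1, from Ndufb6 at a mean of 2.33 to Atp5b at a mean of 78.2, and the 8 tissue isoforms and the second Atp5o identifier lie to its left.

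The complexes differed in the level of their nuclear subunits. Over structural genes, the median TPM was 22.4 ± 1.26 (SD, n = 2 libraries) for complex IV, 16.2 ± 1.36 for complex V, 12.5 ± 1.56 for complex II, 11.3 ± 0.43 for complex III and 6.51 ± 0.12 for complex I. Complex IV was above complex V, and complex I was lowest, in both libraries. Complexes II and III did not keep an order, with 13.6 against 11.0 TPM in replicate 1 and 11.4 against 11.6 TPM in replicate 2. With assembly factors and isoforms included, the medians were 5.37 ± 0.02 for complex I, 8.96 ± 2.13 for II, 11.3 ± 0.43 for III, 9.92 ± 3.50 for IV and 13.7 ± 0.48 for V. Complex IV moved down because 8 of its 20 identifiers are tissue isoforms that were below TPM 1.

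Complex I oxidises NADH with 7 nuclear-encoded core subunits that carry the flavin and the iron-sulfur clusters, surrounded by supernumerary subunits. The core genes had median TPM values of 8.65 and 8.97, and the 29 supernumerary genes 6.32 and 5.77. Ndufa3, a supernumerary subunit (ENSMUSG00000035674.13, mm10 chr7:3617373-3620327, plus strand), had the highest mean in the complex, with 13.78 TPM in replicate 1 and 28.21 in replicate 2. These values rest on 177 and 126 counts. On the TPM scale the libraries lay far apart relative to the other leading genes. By counts scaled between the libraries the log2 ratio was only 0.10, a difference that was not called. Ndufs1, the largest core subunit, stood at 12.18 and 20.15 TPM. Ndufb8 stood at 13.48 and 16.26 TPM. All 3 of these genes were higher in replicate 2 on the TPM scale.

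At the low end of complex I, Ndufb4 had 2.22 and 2.88 TPM and Ndufb6 had 2.25 and 2.41 TPM. The highest and lowest means of the 36 structural genes of this complex differed 9.01-fold. Ndufb4 shares 19.1% of its 31-base words with other genes, most of them with the processed pseudogene Ndufb4c, which had 6.05 and 3.97 TPM, more than Ndufb4 itself in both libraries. Reads of that pair can be split by the quantification, so the level of Ndufb4 is uncertain. The same holds for Ndufb6, of which 34.4% of the words also lie in Smim27, a gene on the opposite strand.

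Complex II, succinate dehydrogenase, links the citric acid cycle to the chain and has only nuclear genes. Sdha, the flavoprotein that oxidises succinate (ENSMUSG00000021577.14, mm10 chr13:74322254-74350280, minus strand), led with 26.12 and 34.76 TPM. Sdhb, the iron-sulfur subunit, had 14.69 and 11.83 TPM. The membrane anchors followed, Sdhd with 12.45 and 10.91 TPM. Sdhc had 7.19 and 10.03 TPM. Sdha was above the other 3 in both libraries, and the order of Sdhb over Sdhd over Sdhc was the same in both, although Sdhd and Sdhc lay within 1 TPM of each other in replicate 2.

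Complex III hands electrons from ubiquinol to cytochrome c. Uqcrh, the hinge protein at the cytochrome c side (ENSMUSG00000063882.12, mm10 chr4:116066965-116075071, minus strand), was highest with 33.72 and 28.65 TPM. Uqcrb had 11.71 and 23.31 TPM, and 34.8% of its words are shared with other genes, mostly pseudogenes. Uqcrc1, a core protein on the matrix side, had 12.80 and 15.68 TPM. Uqcr11, a small subunit, had 13.29 and 9.83 TPM. Uqcrh was the highest of the 8 in both libraries, while Uqcrb and Uqcr11 exchanged places. The lowest means were those of Uqcr10, with 10.36 and 3.57 TPM, and Uqcrc2, the partner of Uqcrc1, with 5.35 and 6.35 TPM. Uqcrfs1, the Rieske iron-sulfur protein, was close to them with 7.25 and 6.82 TPM.

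Complex IV, cytochrome c oxidase, showed the highest median of the 5. Cox7c (ENSMUSG00000017778.14, mm10 chr13:86044816-86046904, minus strand) had 33.47 and 54.49 TPM. Cox4i1, the ubiquitous form of the largest nuclear subunit, had 44.31 and 34.39 TPM. Cox5a had 30.08 and 32.04 TPM. Cox6c had 23.74 and 34.86 TPM. Which of Cox7c and Cox4i1 was first thus depended on the library, and 24.5% of the words of Cox7c lie in other genes. The lowest structural genes were Cox7b, with 4.76 and 13.90 TPM, and Ndufa4, with 6.24 and 7.72 TPM. Ndufa4 carries a complex I symbol for historical reasons and is now placed in complex IV.

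Complex V, ATP synthase, held the member with the most RNA per length. Atp5b, the catalytic beta subunit (ENSMUSG00000025393.12, mm10 chr10:128083273-128090391, plus strand), had 61.29 and 95.12 TPM. Atp5a1, the alpha subunit that alternates with beta in the F1 head, had 34.75 and 35.58 TPM. Alpha and beta stand at equal numbers in the enzyme, and their nuclear RNA differed in both libraries. Of the membrane part, Atp5l (subunit g) had 27.82 and 22.41 TPM. Atp5mpl, a small proteolipid, had 19.30 and 25.09 TPM. The 5 F1 genes had medians of 12.8 and 14.4 TPM and the 11 genes of the membrane part and stalk 16.5 and 19.9 TPM. The lowest were Atp5j2 (subunit f), with 7.54 and 8.31 TPM, and Atp5g1, with 3.65 and 5.02 TPM. Means within complex V spanned 18.0-fold, the widest range among the structural genes of the 5 complexes.

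The c-ring of complex V is built from copies of 1 mature protein that 3 genes encode with different import sequences. Atp5g3 had 20.19 and 23.17 TPM. Atp5g2 had 8.0 and 10.55 TPM. Atp5g1 was lowest. The order of the 3 was the same in both libraries, but 40.2% of the words of Atp5g2 are shared, chiefly with the transcribed pseudogene Gm10175. In the second transcript table, another deposited estimate from the same libraries, Atp5g2 stood at 1.56 and 5.45 TPM, below Atp5g1 in replicate 1. Atp5o, the stalk protein OSCP, has 2 identifiers. ENSMUSG00000022956 held 9.48 and 9.23 TPM, and the other, whose only transcript shares 94.0% of its words with Donson and other genes, had 0 counts in both libraries.

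The assembly or associated factors had lower medians than the structural genes, 1.10 and 2.17 TPM over 14 genes, but not each stood below every subunit of its complex. Cox7a2l, a factor linked to supercomplexes of complexes III and IV, was highest with 14.70 and 15.84 TPM. Whether its product has that role in this mouse strain was not examined. Sdhaf2, needed to attach the flavin to Sdha, had 7.73 and 15.30 TPM, above Sdhc in both libraries. Ndufaf3, a complex I assembly factor, had 1.84 and 2.90 TPM. Cox7a2l and Sdhaf2 were the only 2 above the median of the complex I structural genes in both libraries. At the low end, Sdhaf4 had 1.03 and 0.82 TPM. Sdhaf3 had 0.31 and 1.50 TPM. Ndufaf2 had 0.44 and 0.28 TPM, from 9 and 2 counts. The others below TPM 1 in either library were Ndufaf7 (0.80 and 2.30 TPM), Ndufaf6 (0.92 and 1.52 TPM), Sdhaf1 (0.63 and 1.78 TPM) and Atp5s, also called Dmac2l (0.87 and 1.32 TPM). For Sdhaf1, 69.9% of the words lie in the antisense gene E130208F15Rik, and for Ndufaf2 65.1% lie in B230220B15Rik. The strand setting of the counting is not given in the sources used here, so reads of such pairs cannot be told apart.

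Several complex IV subunits exist as a widely expressed form and a form restricted to heart and muscle, lung or testis, and these nuclei held the widely expressed ones. In the Cox7a family Cox7a2 had 8.66 and 10.89 TPM, and Cox7a1, the heart and muscle form, had 1 count in each library. In the Cox8 family Cox8a had 14.78 and 15.62 TPM, and Cox8b (heart and muscle) and Cox8c (testis) had 0 counts. Cox4i1 led its family, and Cox4i2, the lung form, had 1 count in each library. A count of 0 allows up to 3 counts, or a CPM (counts scaled to library size) of 0.105 in replicate 1 and 0.177 in replicate 2. These limits cover counting error only. The separation of widely expressed from restricted forms was complete in these families in both libraries.

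The remaining families followed the same order. Cox6a1 had 23.31 and 29.27 TPM, and Cox6a2, the heart and muscle form, had 0.55 and 0.82 TPM from 12 and 8 counts. Cox6b1 had 23.69 and 21.53 TPM, and the testis form Cox6b2 had 0 counts. Cox7b had 4.76 and 13.90 TPM, and its testis form Cox7b2 had 0 counts. Ndufa4l2, the paralogue of Ndufa4 known as a hypoxia-induced gene, had 0 counts as well. Cox6a2 was the restricted form with the most counts, and its exons overlap Itgad on the opposite strand, a gene with 1 count in each library. All 7 cardiac and skeletal muscle markers and all 6 testis markers were below TPM 1 in both libraries. In the second transcript table the muscle markers Myh7 (0.68 and 1.39 TPM) and Ckm (0.26 and 1.21 TPM) passed TPM 1 in replicate 2, and the highest value of any restricted form was that of Cox7a1, with 0.68 and 1.89 TPM.

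RefSeq promoter windows were at hand for both members of 4 isoform pairs. Sequence is shown for 2 of them, chosen after the CpG counts were seen, because CpG content is a known difference between promoters of widely expressed and of restricted genes. The lines give the 250 bases before the RefSeq start site (build GRCm38.p6, 5′ to 3′ on the gene's strand), with every CpG in capitals. They lie at chr9:79759854-79760103 (minus strand), chr7:30183921-30184170 (plus strand), chr19:7217617-7217866 (minus strand) and chr7:140900447-140900696 (minus strand).
Cox7a2: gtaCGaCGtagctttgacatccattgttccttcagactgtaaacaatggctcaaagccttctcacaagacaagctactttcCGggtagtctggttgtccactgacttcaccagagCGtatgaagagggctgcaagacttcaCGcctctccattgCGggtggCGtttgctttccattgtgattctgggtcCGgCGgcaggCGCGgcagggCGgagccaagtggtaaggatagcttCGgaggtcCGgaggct
Cox7a1: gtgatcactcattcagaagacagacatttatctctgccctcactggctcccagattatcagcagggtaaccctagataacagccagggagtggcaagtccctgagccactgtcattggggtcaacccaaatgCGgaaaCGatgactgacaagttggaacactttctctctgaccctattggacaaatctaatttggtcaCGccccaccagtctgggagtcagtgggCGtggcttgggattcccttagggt
Cox8a: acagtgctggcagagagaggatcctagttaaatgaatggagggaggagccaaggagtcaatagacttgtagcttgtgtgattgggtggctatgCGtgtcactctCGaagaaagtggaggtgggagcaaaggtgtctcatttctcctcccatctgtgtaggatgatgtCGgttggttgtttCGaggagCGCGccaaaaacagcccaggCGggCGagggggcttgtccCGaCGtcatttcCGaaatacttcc
Cox8b: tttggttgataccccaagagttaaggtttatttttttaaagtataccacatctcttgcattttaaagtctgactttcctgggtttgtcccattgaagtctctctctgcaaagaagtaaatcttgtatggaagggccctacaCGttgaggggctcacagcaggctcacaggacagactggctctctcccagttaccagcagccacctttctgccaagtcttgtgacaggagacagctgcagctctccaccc
The stretch before Cox7a2 holds 14 CpG and 54.8% GC, and that before Cox7a1 holds 4 CpG and 51.2% GC. The stretch before Cox8a holds 11 CpG and 52.8% GC, and that before Cox8b holds 1 CpG and 47.2% GC. Over windows of 300 bases (250 before and 50 after the start), the CpG numbers were 20 for Cox7a2 and 7 for Cox7a1, and 19 for Cox8a and 2 for Cox8b. For the pairs not shown they were 17 for Cox6b1 and 10 for Cox6b2, but 5 for Cox7b and 10 for Cox7b2. The widely expressed form thus had more CpG in 3 of the 4 pairs and fewer in the fourth. Over the same windows, 66 of 68 windows of structural genes and 13 of 13 of assembly factors held 10 or more CpG, against 56.8% of 21263 windows of protein-coding genes. Of the 4 windows of restricted isoforms 2 did, those of Cox6b2 and Cox7b2, and neither gene had a count. The counts of these 4 genes were too few to order them by level, so CpG number and level could not be compared among the restricted forms.

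Nuclear respiratory factor 1 (NRF1), the ETS-family factor GABP, YY1 and Sp1 are known regulators of respiratory chain promoters, so the same 300-base windows were searched on both strands for 1 word of each. RefSeq windows matched 80 of the 97 symbols, 2 of them through an older symbol. The NRF1 word (10 bases, in capitals in its lines) was in 7 of 80 members (8.75%), against 1.47% of 17492 protein-coding genes and 1.07% of all 27025 genes in the table. The YY1 word (11 bases, likewise) was in 5 members (6.25%), against 1.06% of protein-coding genes. The ETS word CCGGAAG was in 21 members (26.2%), against 12.9%, and the Sp1 word GGGGCGGGG in 13 members (16.2%), against 17.3%. No word contains another. Every word searched holds CpG, and windows of structural genes held more CpG (median 19.5) than those of protein-coding genes (median 13). The background shares were not matched for CpG, so an excess of a word cannot be told apart from CpG content. Exact words miss variants of a site, and a match is a description of sequence.

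The 7 NRF1 matches are shown with 10 bases on each side and the word in capitals, since they belong to genes of complexes I, III, IV and V whose levels spread widely. The word reads the same on both strands. They lie at chr15:102671070-102671099 (minus strand), chr5:108434430-108434459 (minus strand), chr5:115349101-115349130 (minus strand), chr17:56717692-56717721 (plus strand), chr4:24897960-24897989 (plus strand), chr2:140170652-140170681 (plus strand) and chr9:108936668-108936697 (plus strand), all GRCm38.p6.
Atp5g2: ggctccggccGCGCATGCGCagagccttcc
Atp5k: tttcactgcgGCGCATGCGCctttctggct
Cox6a1: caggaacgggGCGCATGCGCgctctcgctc
Ndufa11: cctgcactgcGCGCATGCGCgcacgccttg
Ndufaf4: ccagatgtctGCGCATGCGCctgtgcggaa
Ndufaf5: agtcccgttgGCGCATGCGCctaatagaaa
Uqcrc1: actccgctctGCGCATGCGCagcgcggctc
The word begins 42 bases before the start site in Atp5g2, 50 in Atp5k, 60 in Ndufa11, 113 in Ndufaf4 and 162 in Cox6a1, and at base 17 and base 31 of the transcribed strand in Ndufaf5 and Uqcrc1. Mean levels of these 7 genes ran from 1.92 TPM (Ndufaf5) and 2.25 TPM (Ndufaf4) to 16.4 TPM (Atp5k) and 26.3 TPM (Cox6a1). The matches to the YY1 word are shown with up to 9 bases on each side, because all 5 belong to complex I genes. Complex I is also the largest group, with 44 of the 98 identifiers, and whether the word is particular to it was not tested. They lie at chr6:126849096-126849124 (minus strand), chr11:120098935-120098963 (plus strand), chr13:114388045-114388068 (minus strand), chr13:73328433-73328458 (minus strand) and chr10:80249464-80249492 (plus strand), all GRCm38.p6.
Ndufa9: ttgtgggagAAGATGGCGGCcgccgtccg
Ndufaf8: gcagggcccAAGATGGCGGCgccctcgag
Ndufs4: gcctacaggAAGATGGCGGCggtc
Ndufs6: gtcaccggcAAGATGGCGGCggtgct
Ndufs7: gccgaggccAAGATGGCGGCgctggcggg
The word read in the direction of transcription in each of the 5 and began after the start site, at base 30 of the transcribed strand in Ndufa9, 11 in Ndufaf8, 36 in Ndufs4, 34 in Ndufs6 and 25 in Ndufs7. Mean levels of these genes were 1.96 TPM for the assembly factor Ndufaf8 and between 4.67 TPM (Ndufa9) and 7.64 TPM (Ndufs7) for the 4 subunits.

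RNA of 3 factors known to bind such words was measured. Nrf1 itself had 6.04 and 15.41 TPM, Gabpa 5.48 and 11.32 TPM and Yy1 6.79 and 10.18 TPM. Among the 11 regulators listed, 10 reached TPM 1 in both libraries. The exception was Ppargc1a, the coactivator that drives mitochondrial gene expression in muscle and brown fat, with 0 and 2 counts, while its relatives Ppargc1b (2.13 and 5.69 TPM) and Pprc1 (5.69 and 15.93 TPM) were present.

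Other nuclear genes of the pathway are not taken in by the symbol rule. Cyc1, the cytochrome c1 subunit of complex III, had 6.50 and 7.01 TPM, and Cycs, cytochrome c, had 8.60 and 9.16 TPM. Of 33 further assembly factors and inhibitors, 27 reached TPM 1 in both libraries. Their medians of 2.91 and 4.43 TPM lay above those of the 14 assembly or associated factors among the members and below those of the structural genes. The highest of the 33 were Cox17, a copper chaperone for complex IV, with 34.55 and 34.18 TPM, and Coa5, with 24.79 and 38.76 TPM. Atpif1, the inhibitor of ATP synthase, had 21.24 and 33.60 TPM. All 3 were above the median of the complex V structural genes in both libraries, a level that none of the 14 assembly or associated factors among the members reached.

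The RNAs of the subunits that mitochondria themselves encode were far more abundant in the same libraries, and their relation to the nuclear subunits was not constant. For complex I, the median of the 7 mt-Nd mRNAs was 1689 TPM in replicate 1 and 7046 in replicate 2, which is 263 and 1068 times the median of the 36 nuclear structural genes. For complex III, mt-Cytb stood at 158 and 661 times the nuclear median. For complex V, the median of mt-Atp6 and mt-Atp8 stood at 249 and 1764 times the nuclear median. For complex IV the factors were 20.8 and 27.4, with mt-Co3 as the median of 3. In the second transcript table, a comparison added after seeing the data, the factors were 169 and 561 for complex I, 120 and 430 for III, 149 and 943 for V and 78.7 and 187 for IV. Complex IV had the smallest gap in both libraries by either table, but its size depended on the table. Its 3 mitochondrial mRNAs were themselves unequal, with mt-Co1 at 10564 and 30184 TPM, mt-Co3 at 484 and 590 TPM and mt-Co2 at 89.3 and 270 TPM. mt-Atp8 is a very short gene, and its 7248 and 58916 TPM rest on 5750 and 24786 counts.

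**Figure D2:**
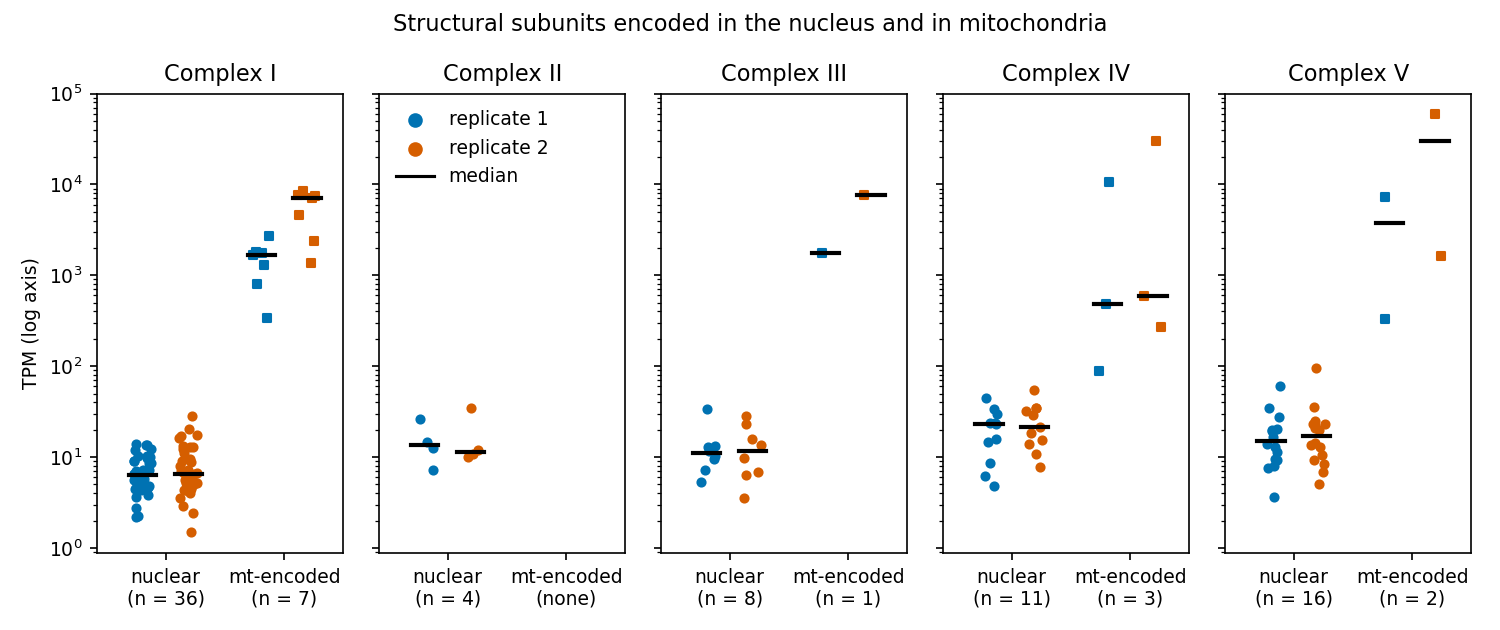
TPM (log axis) of structural subunits encoded in the nucleus (circles) and in mitochondria (squares) for each complex, in replicate 1 (blue) and replicate 2 (orange), with medians as black lines. Nuclear medians lie between 6.42 and 23.3 TPM in both libraries, and the mitochondrial medians are higher and differ more between the libraries.

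The abundance of mitochondrial RNA in a nuclear fraction moved between the libraries in the opposite direction to the nuclear-encoded genes. Of the 13 mitochondrial mRNAs, 12 were higher and 1 (mt-Co3) lower in replicate 2 by an exact two-sided binomial test on TMM-scaled counts with Benjamini-Hochberg adjustment. Their median log2 ratio was 1.45 above that of all tested genes. In the second transcript table mt-Co3 had 1004 and 3106 TPM, beside medians over all tested genes of 2.14 and 4.81 TPM. Its lower ratio may thus depend on the table. How much cytoplasmic or mitochondrial material the fractions held was not measured, and its part in the levels of the members was not tested.

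The libraries were compared gene by gene with that binomial test, whose error is that of counting alone, so it speaks of these libraries and of no condition. It was run on 14698 genes, those whose counts averaged at least 10, and 59.9% of them passed an adjusted p of 0.05, 29.7% higher and 30.2% lower in replicate 2. The common biological coefficient of variation between the libraries was 0.335. Of the 98 members, 89 were tested and 48 passed, 10 higher and 38 lower in replicate 2. The share of members that passed in either direction was near that of all genes. The direction was unequal, for more members were lower and fewer higher than the shares of all genes give. The members' median log2 ratio, replicate 2 over replicate 1, was 0.31 below the all-gene median (relative value -0.31). Protein-coding genes of the nuclear genome, the closer background, were themselves more often lower than higher. Of 11344 tested, 4061 were lower and 2810 higher, with a relative median of -0.09. Beside them the members' shift was in the same direction but smaller than beside all genes. In such bulk RNA a change in the share of cells that hold an RNA and in its amount per cell cannot be told apart. Scaled by total counts, 25 members were lower and 11 higher, against 22.1% and 39.2% of all genes. On the TPM scale 67 of 98 members were higher in replicate 2, but there the all-gene median was itself 0.43.

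By complex, 6 of 8 tested genes of complex III were lower and 1 was higher, with a median of -0.70 relative to all tested genes. Complex I had 14 lower and 4 higher of 43, with a median of -0.23. Complex IV had 6 lower and 0 higher of 13, with a median of -0.31. Complex V had 9 lower and 2 higher of 17, with a median of -0.29. Complex II was divided by role, for 3 of its 4 subunits were lower and 3 of its 4 assembly factors higher. Over all complexes, 37 structural genes were lower and 6 higher of 75, and 1 assembly factor was lower and 4 were higher of 13. The differences between complexes were not tested. Of the genes outside the symbol rule, 7 of 32 tested assembly factors were lower and 7 higher, and 2 of 10 tested regulators were lower and 3 higher.

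**Figure D3:**
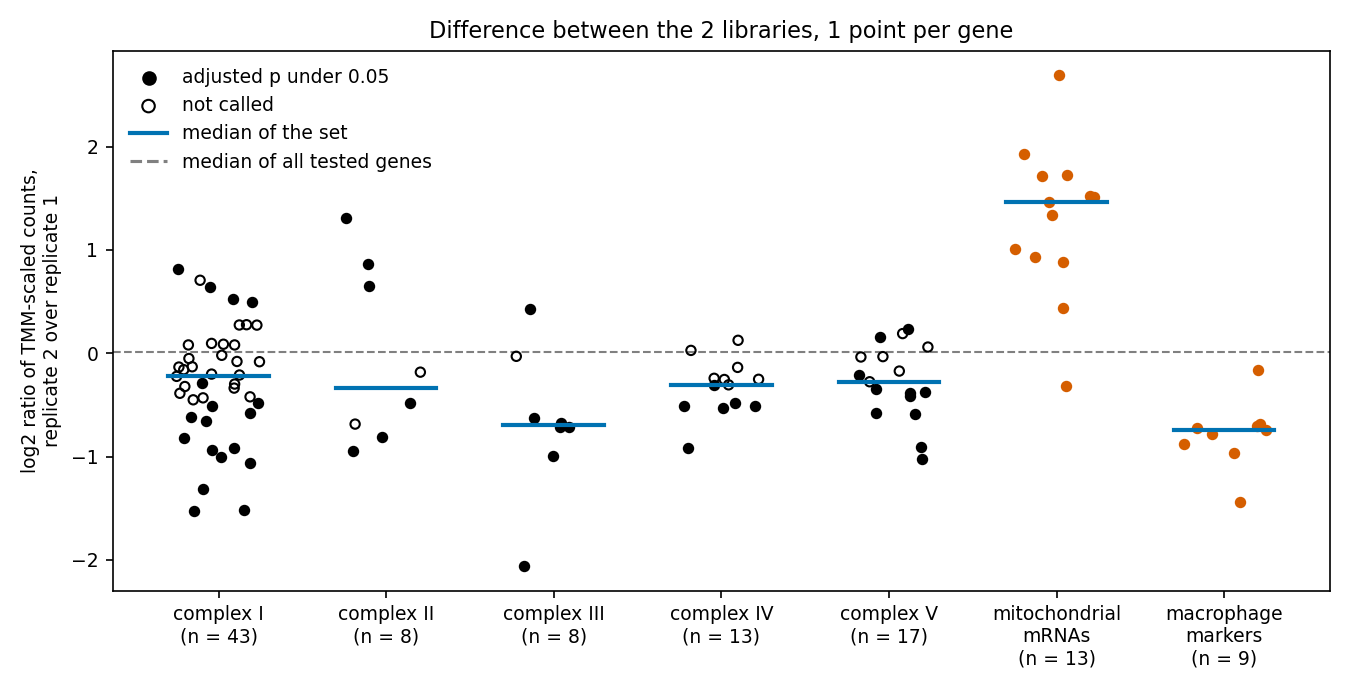
Log2 ratio of TMM-scaled counts, replicate 2 over replicate 1, for each tested member by complex (black), for the 13 mitochondrial mRNAs and for the 9 macrophage markers (orange). Filled points passed an adjusted p of 0.05, blue lines are medians and the dashed line is the median of all tested genes. The complex medians lie below the dashed line and the mitochondrial median lies above it.

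The lowest ratio was that of Uqcr10, a small subunit of complex III (mm10 chr11:4701973-4704342, minus strand), with 109 and 17 counts and a log2 ratio of -2.06 (adjusted p = 4.87e-10, exact binomial test). Ndufa2, a supernumerary subunit of complex I, had 170 and 39 counts and a log2 ratio of -1.53. Ndufa1, another, had 79 and 18 counts and a log2 ratio of -1.52. All 3 are short mRNAs with fewer than 200 counts in either library. Ndufa13, also known as Grim19, had 330 and 87.9 counts (log2 ratio -1.32), and 33.2% of its words are shared, mostly with Tssk6 on the opposite strand. Ndufs7, a core subunit with an iron-sulfur cluster, had 217 and 69 counts (log2 ratio -1.06). Atp5b, the member with the highest level, had 3353 and 1931 counts (log2 ratio -0.21, adjusted p = 8.01e-07), a call that ended when total counts replaced TMM.

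At the other end, 4 of the 5 members with the highest ratios were assembly factors. Sdhaf3 had 21 and 35 counts (log2 ratio 1.31, adjusted p = 0.00199, exact binomial test). Sdhaf1 had 69.7 and 85 counts (log2 ratio 0.86), and that call was lost in the second transcript table. Its antisense partner E130208F15Rik had 49.3 and 0 counts, and reads of the pair cannot be told apart. Ndufaf4, a complex I assembly factor, had 136 and 160 counts (log2 ratio 0.82). Their counts were small, and replicate 2 had the higher raw count in spite of the lower depth. Sdhaf2 had 700 and 731 counts (log2 ratio 0.65, adjusted p = 1.84e-16). Ndufab1, the mitochondrial acyl carrier protein and the one structural gene in this group, had 336 and 349 counts (log2 ratio 0.64). Its exons overlap Gm44986 on the opposite strand, a gene with 109 and 152 counts (log2 ratio 1.06). Where the 2 overlap, their reads cannot be told apart. Of the tested assembly factors and regulators outside the rule, Cox20, a complex IV chaperone singled out after its values were seen, had the largest log2 ratio, with 64.6 and 221 counts (log2 ratio 2.34).

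Length and base composition moved with the ratio over all genes. The members are short, with a median effective length of 532 bases against 2096 over all tested genes, and their median GC content of 51.6% was above the 48.6% of all tested genes. Protein-coding genes under 400 bases had a median log2 ratio of -0.63, and the 26 members among them -0.45. Between 400 and 600 bases the medians were -0.50 for all and -0.32 for 18 members, and between 600 and 1000 bases -0.27 and -0.26 for 20 members. In these 3 classes the members' median was thus not below that of all protein-coding genes of like length. Between 1000 and 2000 bases the medians were -0.13 for all and -0.18 for 21 members. By GC content, members lay above all protein-coding genes in the class between 55 and 60% (-0.32 against -0.39) and below them in the other 5 classes. Those were under 40% (0.20 against 0.37, 2 members), between 40 and 45% (-0.04 against 0.18, 11 members), between 45 and 50% (-0.30 against 0.00), between 50 and 55% (-0.30 against -0.22) and 60% or more (-1.06 against -0.60, 3 members). The 76 ribosomal protein genes had a median of -0.59 relative to all tested genes, with 64 lower and 2 higher. All 9 macrophage markers were lower, with a median of -0.75.

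**Figure D4:**
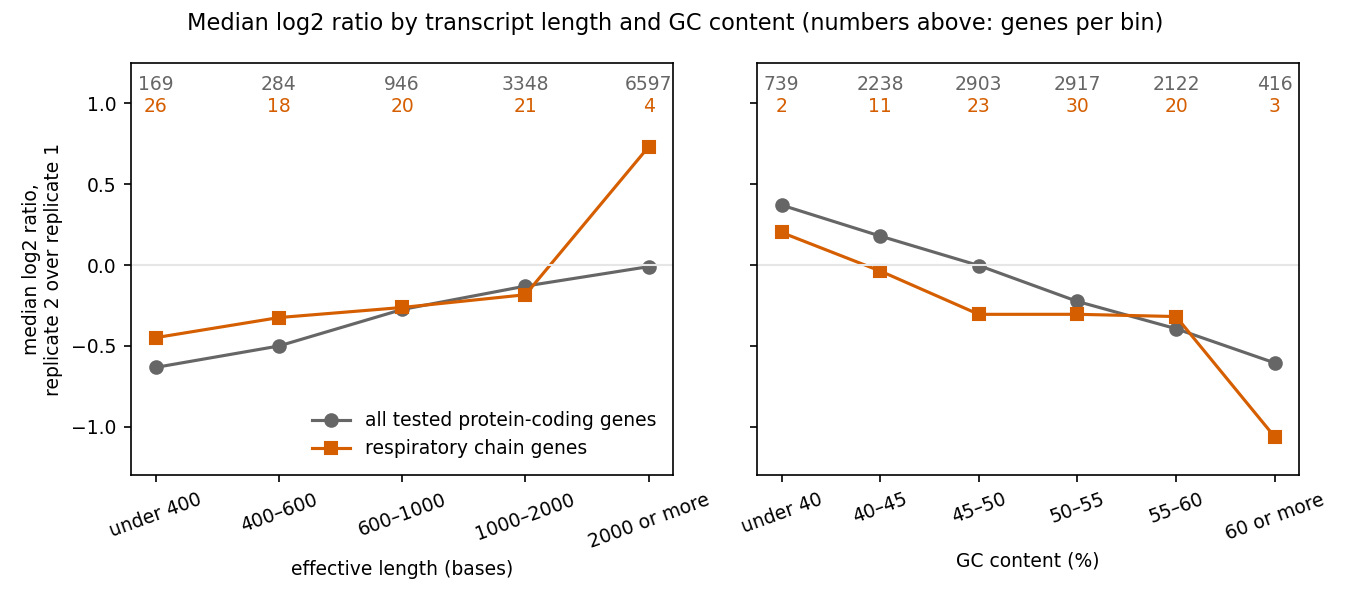
Median log2 ratio, replicate 2 over replicate 1, of all tested protein-coding genes (grey) and of the members (orange) in classes of effective length (left) and GC content (right), with the number of genes in each class above. The medians of all genes are higher in the longer classes and lower in the GC-richer ones, and in the classes under 1000 bases the members lie at or above the other genes. The rightmost length class holds 4 members, and the outermost GC classes 2 and 3.

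Nuclear RNA can hold unfinished and intron-retaining transcripts, so the part of each gene's TPM that fell to transcripts annotated as retained intron was followed for the 51 members with such a transcript and enough counts. Its median was 18.7% in replicate 1 and 22.4% in replicate 2 (20.5% ± 2.64, SD, n = 2), against 23.6% and 30.0% over 6946 genes. A mean share of 50% or more was found for 6 of the 51 members, against 18.5% of all such genes. Complex I had the highest median, 26.5% and 35.1% over 25 genes, and complex IV the lowest, 11.3% and 7.06% over 10 genes. In replicate 2 the complex I median and the all-gene median were higher than in replicate 1, and the complex IV median was lower. In the second transcript table the medians, as means of both libraries, were 34.8% (I), 23.0% (II), 20.4% (III), 19.9% (IV) and 21.7% (V). Over structural genes alone complex IV stood at 23.3% there, above III and V. The low place of complex IV thus depended on the table and on who is counted. These differences between complexes were not tested, and annotation sets which genes can have such a share at all.

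The highest share was that of Atp5j, coupling factor 6 in the stalk of complex V (mm10 chr16:84827866-84835625, minus strand), with 78.8% in replicate 1 and 86.3% in replicate 2. Its 18.6 ± 3.01 TPM were thus mostly on retained-intron transcripts in both libraries, and 11.4% of its words are shared with other genes. Ndufab1 had 82.9% and 71.7%. Ndufs1 had 52.5% and 71.0%. Ndufa6, a supernumerary subunit of complex I, had 56.0% and 67.4%. Those 4 were above 50% in both libraries by this estimate. In the second transcript table Ndufab1 (61.3% and 62.5%) and Ndufa6 (78.7% and 78.2%) stayed above it, but Ndufs1 had 39.2% and 57.4%. Ndufb2, with 26.5% and 22.7% in the main table, had 64.4% and 67.7% there. Shares of single genes thus depended on the table. Ndufaf7, an arginine methyltransferase that acts on complex I, had a mean of 67.8% ± 25.2 (SD, n = 2), with the higher value in replicate 2, from 46 and 37 counts. Ndufb4, named after its values were seen because it completes the 6, had 68.6% and 40.3%. Its libraries lay on both sides of 50%. At the other end Atp5a1 had 3.94% and 2.50% and Cox6a1 had 3.26% and 2.73%.

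**Figure D5:**
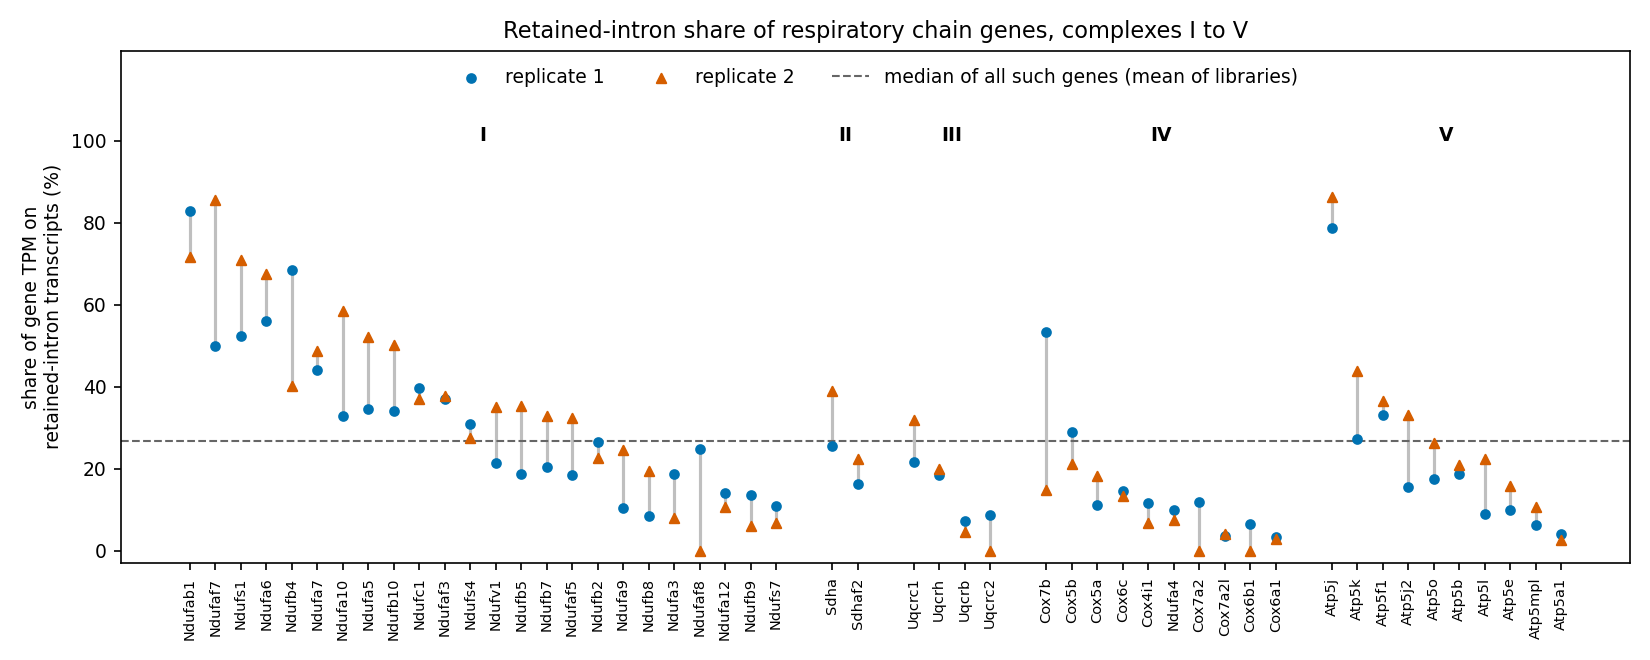
Share of each gene's TPM on retained-intron transcripts (percent) for 50 of the 51 members in replicate 1 (circles) and replicate 2 (triangles), by complex from I to V. The dashed line is the median over all such genes, 26.8% as the mean of both libraries. Most complex IV genes lie below it, and Atp5j and Ndufab1 lie far above it in both libraries.

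Transcript mixture also affected how counts translate into TPM. Atp5l had 1005 and 747 counts, which after TMM scaling is a log2 ratio of 0.16, while its TPM was 27.82 and 22.41. Its effective length was 732 bases in replicate 1 and 1588 in replicate 2, and its retained-intron share 8.95% and 22.3%. Cox7b moved the other way, with an effective length of 511 and 230 bases, a retained-intron share of 53.4% and 14.7%, and TPM of 4.76 and 13.90 at a log2 ratio of counts of -0.25 that did not pass. For these genes the TPM and the counts give different orders of the libraries. Different orders were not particular to them, since the all-gene median log2 ratio was 0.43 on the TPM scale and 0.01 for scaled counts. Sdha, too, was higher in replicate 2 by TPM and lower by counts (log2 ratio -0.49). Atp5l, lower in replicate 2 by TPM, went against that shift. How much of each difference came from transcript mixture was not tested.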

How the data were processed

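Total RNA-seq of 2 nuclear libraries of 1 group was analysed. The fraction is labelled both as nucleus and as nucleoplasmic. The deposited tables of genes and of transcripts hold, per the file headers, expected counts (estimated, not always whole) and TPM, and the authors' second transcript table holds estimated counts and TPM of another estimator. The README files name mm10 and GENCODE M21. The tools, their versions and the strand setting are not given in the sources used here. Gene type, transcript type and identity were read from the deposited target names and the annotation, a column of labels and not of measurements.

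Symbols were taken from the deposited target names and matched to all 98 gene identifiers. The members, gene lists and the rule for named genes were chosen with earlier results of these data known. By that rule the text names all Sdh subunits, the 4 highest and 2 lowest structural genes (TPM 1 or more in both) of the other complexes, the 3 highest and 3 lowest assembly factors, the isoform families, the 5 largest and 5 smallest ratios past the threshold, the 5 highest retained-intron shares and every member below TPM 1. One gene that the rule names is not reported here. Rows that name no mouse gene (1.79% and 0.318% of counts) were left out. Counts were rounded, scaled by TMM (edgeR 4.0.16, R 4.3.3) and compared between libraries by an exact two-sided binomial test for genes whose counts averaged at least 10, calling a gene at a Benjamini-Hochberg adjusted p under 0.05 (scipy 1.17.1, Python 3.11.15). The test was tested on simulated data that held counting error only. That cannot show how it behaves at the larger spread between these libraries. Log2 ratios used a prior count of 0.5. Nothing says that the replicates came from separate animals, so the spread between them may be technical, and the binomial p-values cover counting error only. Shared words are 31-base words of a gene's transcripts found in another gene on either strand, and 14 members share 20% or more. DESeq2 1.42.0 size factors, total counts, other filters, posterior mean TPM, rescaled TPM and the second transcript table were alternatives. Depth was 28450309 and 16940220 counts, which allows 3 counts for a gene at 0.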

Additional observations from a re-analysis of the deposited data

How the results depend on the processing

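Medians of TPM over all members of a complex depended on the scale and on who is counted. In the second transcript table they were 4.31 (I), 6.42 (II), 7.98 (III) and 9.76 (V). Rescaled without short and mitochondrial RNAs they were 21.7 (I), 35.0 (II), 45.5 (III), 38.2 (IV) and 55.1 (V). Over structural subunits alone they were 6.51 (I), 12.5 (II), 22.4 (IV) and 16.2 (V). With posterior mean TPM complex I stood at 5.89. Without one replicate or the other the medians ranged from 5.36 to 5.39 (I), 7.46 to 10.5 (II), 11.0 to 11.6 (III), 7.45 to 12.4 (IV) and 13.4 to 14.1 (V), the number of members at TPM 1 or more from 83 to 87, and the median retained-intron share from 18.7% to 22.4%. That share was 26.6% in the second transcript table. With total counts 25 members were lower in replicate 2, in place of 38, against 22.1% of all genes. Of 92 members tested with the second transcript estimates, 54 were lower and 8 higher in replicate 2, against 30.9% and 32.1% of all genes. Those 54 included 37 of the 38 members that were lower by the main estimates. The 8 included only 5 of the 10 members that were higher by the main estimates, so the higher calls were less stable. The members' median log2 ratio relative to all tested genes was -0.53 in the second transcript table and -0.075 as log2(TPM + 5), and it was negative under the 6 alternatives that can change it (total counts and DESeq2 size factors shift all genes alike). The log2 ratio of Atp5f1 was 0.23 in the main table and -0.13 in the second. Of the 48 calls, total counts ended 13, the second transcript estimates ended 5 besides Atp5f1, and DESeq2 size factors and no filter on low counts 1 each (Atp5l). The cause was not tested in any of these. No paired analysis was possible because there is 1 group with 2 libraries. Depth limits the restricted isoforms and low assembly factors, whose values rest on few counts.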

Other observations

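The symbol prefixes also matched 13 genes that have no protein-coding transcript, 12 of them typed as processed pseudogenes, and 10 of the 13 were below TPM 1 in both libraries. The exception among gene types was Ndufb1-ps, typed as a non-coding RNA from a bidirectional promoter, with 13.31 TPM in replicate 1 and 10.67 in replicate 2 from 354 and 126 counts. That is above the median of the structural genes of complex I in both libraries. The pseudogene Ndufb4c had 6.05 and 3.97 TPM, from 46.7 and 14.4 counts.

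Over the 89 tested members, log2(TPM + 1) in the 2 libraries had a Pearson r of 0.92, and the mean over libraries in the 2 deposited estimates had an r of 0.93. GC content and log2 ratio had an r of -0.41 over the same members. These are descriptions across genes of 2 libraries, and genes are not independent replicates.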
